A study of Mus musculus with 15 samples.

Results

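The neurotrophins and their receptors were followed here as 5 genes of the RNA-seq table: the ligands *Bdnf* and *Ntf3* and the receptors *Ntrk2*, *Ntrk3* and *Ngfr*. They were taken by their symbols, and all 5 were found among the 23235 genes of the table. The study compared adult wild-type (WT) C57BL/6J mice with adult mice of the strain B6(Cg)-Snord116tm1.1Uta/J, called *Snord116del* (+/-). In these the paternally inherited *Snord116* cluster is deleted. By the paper, the WT and *Snord116del* mice of the RNA-seq were littermates, with fathers heterozygous for the deletion and C57BL/6 WT mothers. RNA-seq was made from dissected cortex of males at 2 times of day, Zt +6 and Zt +16 (zeitgeber time, the first by day and the second by night), with 3 WT and 2 *Snord116del* mice at Zt +6 and 2 mice of each genotype at Zt +16. Chromatin isolation by RNA purification (ChIRP-seq) pulled down DNA with oligos against *116HG*, the spliced host gene RNA of the cluster, from 2 WT brains and 1 *Snord116del* brain, and with nonspecific control oligos (NSC) from 1 brain of each genotype. The table gives 1 FPKM value (fragments per kilobase of transcript, scaled to the reads of the library) per gene and group, so the spread between mice cannot be seen and no test between groups was possible.

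Neurotrophins are secreted growth factors that keep neurons alive and shape their synapses. BDNF acts mainly through the receptor tyrosine kinase TrkB, encoded by *Ntrk2*, and NT-3, encoded by *Ntf3*, acts mainly through TrkC, encoded by *Ntrk3*. The p75 receptor, encoded by *Ngfr*, binds every neurotrophin and its precursor, and in the adult forebrain it is best known from cholinergic neurons of the basal forebrain. In the adult cortex *Bdnf* is transcribed by excitatory neurons in response to activity, and *Ntrk2* gives a full-length kinase receptor in neurons and a truncated form without the kinase that is abundant in astrocytes.

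Sequences under ChIRP-seq peaks are shown first, because the members differed most in what their peaks covered. All were read from the mm9 assembly (NCBIM37) in the direction of transcription of the gene. The peak pair in the long intron of *Ntf3*, at chr6:126088579-126088732 on the minus strand, is shown because *Ntf3* was the single member where *116HG* peaks of both WT libraries overlapped, and capitals mark the bases that both peaks cover.
Ntf3 intron: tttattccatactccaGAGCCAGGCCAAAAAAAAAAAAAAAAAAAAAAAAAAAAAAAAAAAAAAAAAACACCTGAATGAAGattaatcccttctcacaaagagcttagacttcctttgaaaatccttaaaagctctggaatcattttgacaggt
The other sequences show another kind of peak, one that follows a coding exon. For each Trk receptor it is the replicate 1 peak of highest fold over input among those of up to 300 bases whose exon bases were all coding, and capitals mark coding bases. The *Ntrk2* peak lies at chr13:58948062-58948230 on the plus strand and the *Ntrk3* peak at chr7:85596776-85596872 on the minus strand.
Ntrk2 exon: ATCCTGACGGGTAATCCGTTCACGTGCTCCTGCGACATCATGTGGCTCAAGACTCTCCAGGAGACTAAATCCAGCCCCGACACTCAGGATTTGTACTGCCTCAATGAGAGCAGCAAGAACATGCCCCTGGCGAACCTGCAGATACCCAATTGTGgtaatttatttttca
Ntrk3 exon: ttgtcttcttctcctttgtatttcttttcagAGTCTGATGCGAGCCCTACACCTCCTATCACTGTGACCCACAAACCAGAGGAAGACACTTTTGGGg
The *Ntrk2* peak held 154 of the 155 bases of its exon and the *Ntrk3* peak all 65 bases of its exon, with short stretches of the neighbouring introns. In *Ntf3* the shared bases instead enclosed an unbroken run of A, of 42 bases.

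*Snord116* itself had 0 FPKM in each of the 4 groups and so told nothing about the labels. *Ipw*, another RNA of the locus, was lower in *Snord116del* at each time. It had 3.40 FPKM against 21.6 FPKM in WT at Zt +6 and 1.82 against 3.17 FPKM at Zt +16. Across times it did not separate the genotypes, since WT at Zt +16 was below *Snord116del* at Zt +6. *Snrpn*, also of the locus, was higher in *Snord116del*. It had 105 FPKM against 65.3 FPKM in WT at Zt +6 and 149 against 90.0 FPKM at Zt +16. All 7 cortical markers examined, among them *Tbr1*, averaged 1 FPKM or more. A gene was counted as different between groups when its FPKM + 1 differed 1.5-fold or more and the higher group had 1 FPKM or more. This was asked of the 10297 genes whose mean over the groups was 1 FPKM or more. The deposited values shifted as a whole between groups: the median log2 fold change of FPKM + 1 over the tested genes was 0.57 for *Snord116del* against WT at Zt +6, 0.35 at Zt +16, -0.04 for Zt +16 against Zt +6 in WT and -0.24 in *Snord116del*. At Zt +6 it also followed transcript length, from -0.46 for genes whose longest annotated transcript is under 1 kb to 1.23 for those over 6 kb. Members are therefore given as deposited and after every group was scaled to the same median over the tested genes. The tested members are also given after the trend on transcript length was removed. In bulk cortex, fewer cells of a type and less RNA per cell cannot be told apart.

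Among the ligands, *Bdnf* was the more abundant, and its highest value was in *Snord116del* at Zt +6. *Bdnf* (chr2:109514857-109567204, plus strand) was at 2.39 FPKM in WT and 5.50 FPKM in *Snord116del* at Zt +6, and at 1.79 FPKM in WT and 2.07 FPKM in *Snord116del* at Zt +16. The other 3 groups thus lay close together, and the *Snord116del* group at Zt +6 was 2.31-fold above its WT group. The log2 fold change of FPKM + 1 at Zt +6 was 0.94, with 70.4% of the tested genes below it, so the difference was in the upper part of a distribution that had itself moved up. It was 0.29 after scaling to the same median and 0.13 after the length trend was removed, neither of which passed the fold rule. At Zt +16 the log2 fold change of genotype was 0.13, which became -0.18 with equal medians.

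*Ntf3*, the gene of NT-3, was low in every group. *Ntf3* (chr6:126051431-126116762, minus strand) was at 0.571 FPKM in WT and 0.823 FPKM in *Snord116del* at Zt +6, and at 0.387 FPKM in WT and 0.572 FPKM in *Snord116del* at Zt +16. Its mean of 0.588 FPKM kept it out of the tested genes. Its log2 fold change of genotype was 0.22 at Zt +6 and 0.18 at Zt +16. With equal medians it was -0.12 and 0.03. *Bdnf* exceeded *Ntf3* in FPKM by between 3.62-fold in *Snord116del* at Zt +16 and 6.68-fold in *Snord116del* at Zt +6. *Ntf5*, the gene of NT-4, was also below the filter, between 0.0876 and 0.238 FPKM.

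The Trk receptors had the widest range of the members. *Ntrk2* (chr13:58907957-59235331, plus strand) was at 16.1 FPKM in WT and 59.1 FPKM in *Snord116del* at Zt +6, and at 9.53 FPKM in WT and 11.4 FPKM in *Snord116del* at Zt +16. *Ntrk3* (chr7:85337248-85723294, minus strand) was at 4.64 FPKM in WT and 16.0 FPKM in *Snord116del* at Zt +6, and at 1.33 FPKM in WT and 1.79 FPKM in *Snord116del* at Zt +16. Both receptors stood in the same order over the groups, highest in *Snord116del* at Zt +6, then WT at Zt +6, then *Snord116del* and WT at Zt +16.

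**Figure D1:**
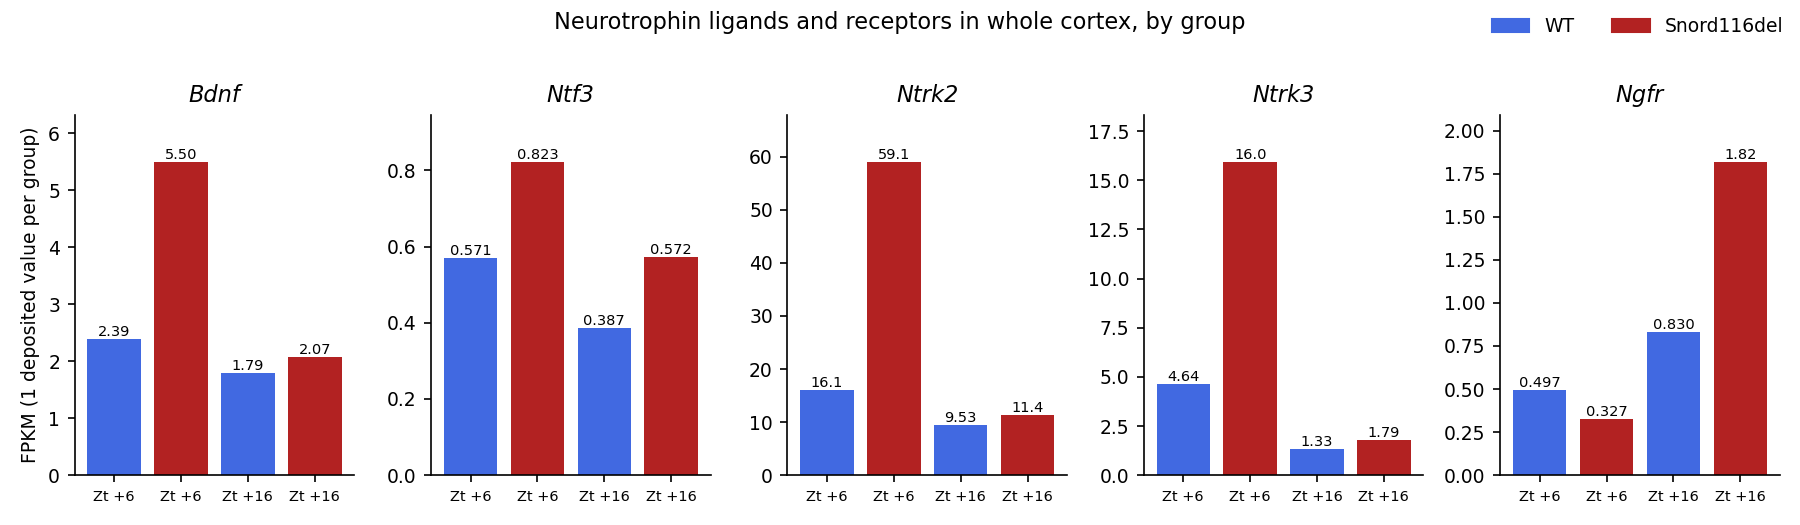
FPKM of each member in whole cortex, 1 bar for the deposited value of a group, WT in blue and *Snord116del* in red, each panel with its own linear axis from 0. *Bdnf*, *Ntrk2* and *Ntrk3* have their tallest bar in *Snord116del* at Zt +6 (5.50, 59.1 and 16.0 FPKM), while *Ngfr* has it in *Snord116del* at Zt +16 (1.82 FPKM).

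For *Snord116del* against WT at Zt +6, all 3 members that could be tested passed the fold rule as higher, where 49.3% of the tested genes did so, 7.62% passed it as lower and 56.9% passed it in either direction. The FPKM of *Ntrk2* was 3.67-fold and that of *Ntrk3* 3.44-fold higher in *Snord116del*. Their log2 fold changes of FPKM + 1 were 1.81 and 1.59, above those of 98.5% and 95.6% of the tested genes. With equal medians they were 1.01 for *Ntrk2* and 0.84 for *Ntrk3*, so both still passed the rule. After removal of the length trend *Ntrk3* stood at 0.98 and *Ntrk2* at 0.58, the latter just under the limit of the rule. The longest annotated transcript of *Ntrk2* has 8541 bases, and 91.2% of the tested genes with a transcript over 6 kb passed the rule as higher at Zt +6. Of 7 astrocyte markers 6 passed the rule as higher in the same comparison. So did 5 of 5 tested endothelial, 5 of 5 striatal, 5 of 7 cortical and 4 of 7 neuronal markers. The counts were 4 of 7 for microglia, 3 of 6 for oligodendrocytes and 1 of 3 for mural and meningeal cells. Markers were counted on the deposited scale only. The summed level of the astrocyte markers was 373 FPKM in WT and 566 FPKM in *Snord116del* at Zt +6, and 519 and 792 FPKM at Zt +16. *Aldoc* alone was at 275 and 261 FPKM in WT and *Snord116del* at Zt +6, and at 465 and 713 FPKM at Zt +16. Most of the 7 astrocyte markers went the other way from *Aldoc* between times. At Zt +16, 4 passed the rule as lower in WT and 5 in *Snord116del* (10.3% and 39.1% of the tested genes), with 1 as higher in each. None of the 7 was at 0 in every group, and their part in the *Ntrk2* values was not tested.

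At Zt +16 none of the 3 tested members passed the rule, where 19.2% of the tested genes did in either direction, 19.0% as higher and 0.204% as lower. The log2 fold changes were 0.24 for *Ntrk2* and 0.26 for *Ntrk3*, both below the median of 0.35 over the tested genes. With equal medians they were -0.19 and -0.03. The genotype effect at Zt +16 minus that at Zt +6 was -1.57 for *Ntrk2*, -1.33 for *Ntrk3* and -0.81 for *Bdnf* on the log2 scale, against a median of -0.22 over the tested genes. It was -0.03 for *Ntf3*. With equal medians it was -1.196 for *Ntrk2*, -0.867 for *Ntrk3* and -0.464 for *Bdnf*, against a median of 0.056. Without the length trend it was -0.56 for *Ntrk2*, -1.065 for *Ntrk3* and -0.31 for *Bdnf*, against a median of -0.025. With the length of *Ntrk3* taken out to its farthest downstream peak, its genotype effect was 0.19 at Zt +6 and 0.08 at Zt +16. With 1 value per group these differences have no error and were not tested.

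Between the times of day in WT, *Ntrk3* differed more than the other members. In WT it went from 4.64 FPKM at Zt +6 to 1.33 FPKM at Zt +16, a 3.48-fold difference, and only 0.923% of the tested genes had a lower log2 fold change than its -1.27. *Ntrk2* had a log2 fold change of -0.70 and also passed the rule as lower, while *Bdnf* at -0.28 did not. The rule was passed as lower by 10.3% of the tested genes, as higher by 5.71% and in either direction by 16.0%. Without the length trend *Ntrk3* stayed at -1.23, whereas *Ntrk2* was at -0.26. The longest annotated transcript of *Ntrk3* has 3300 bases, and ChIRP-seq peaks lay up to 9.31 kb after its annotated end. With the length of *Ntrk3* taken out to there, its value without the length trend was -0.66 between times in WT and 0.19 between genotypes at Zt +6, so that the latter no longer passed the rule.

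In *Snord116del* the same members were lower at Zt +16 by a wider margin. *Ntrk3* was 8.92-fold lower in FPKM and *Ntrk2* 5.18-fold lower, with log2 fold changes of -2.60 and -2.28, and *Bdnf* was at -1.08. All 3 passed the rule as lower, as did 39.1% of the tested genes, while 25.0% passed it as higher and 64.0% in either direction. This comparison shares the *Snord116del* group at Zt +6 with the comparison of genotypes at that time. With equal medians the values were -2.12 for *Ntrk3*, -1.79 for *Ntrk2* and -0.67 for *Bdnf*. This comparison also followed transcript length, with a median of 1.42 for genes under 1 kb and of -1.44 for those over 6 kb. Without the length trend *Ntrk3* was at -2.30, or at -0.76 with its length taken out to the farthest peak, and *Ntrk2* was at -0.81. *Bdnf* was then at -0.44 and no longer passed the rule, nor did it with quantile normalization, at -0.56.

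In deposited FPKM, the relation between the Trk receptors shifted with the time of day more than with genotype. The ratio of *Ntrk2* to *Ntrk3* in FPKM was 3.47 in the WT group and 3.70 in the *Snord116del* group at Zt +6, and was 7.15 and 6.38 in those groups at Zt +16. A ratio within a group does not depend on how that group was scaled, but the length trend between groups does not cancel in it. Without that trend and with *Ntrk3* lengthened as above, *Ntrk2* and *Ntrk3* were at -0.26 and -0.66 between times in WT. Between times in *Snord116del* they were at -0.81 and -0.76, and between genotypes at Zt +6 at 0.58 and 0.19. On that scale time did not clearly exceed genotype. The ratio of *Ntrk2* to its ligand gene *Bdnf* was 6.74 in WT against 10.7 in *Snord116del* at Zt +6, and it was 5.31 against 5.52 at Zt +16. *Ntrk3* exceeded *Bdnf* at Zt +6, by 1.94-fold in WT and 2.90-fold in *Snord116del*, and was below it at Zt +16, at 0.743 and 0.866 of the *Bdnf* level.

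*Ngfr*, the p75 receptor gene, followed another order. *Ngfr* (chr11:95430132-95449049, minus strand) was at 0.497 FPKM in WT and 0.327 FPKM in *Snord116del* at Zt +6, and at 0.830 FPKM in WT and 1.82 FPKM in *Snord116del* at Zt +16. It was thus lowest in the group where the Trk receptors and *Bdnf* were highest, and its mean of 0.868 FPKM kept it out of the tested genes. *Slc18a3*, the vesicular acetylcholine transporter of cholinergic neurons, was at 0.611 and 0.476 FPKM in WT and *Snord116del* at Zt +6 and at 1.08 and 2.40 FPKM at Zt +16. The 4 markers of basal forebrain cholinergic neurons together were between 1.01 and 2.99 FPKM, none at 0 in every group. Among them *Chat*, the acetylcholine-synthesizing enzyme, was between 0.0536 and 0.368 FPKM with its highest value in *Snord116del* at Zt +6. *Slc5a7* was between 0.123 and 0.463 FPKM and also highest there. *Lhx8* was between 0.147 and 0.261 FPKM, highest in *Snord116del* at Zt +16 as *Slc18a3* was. The part of cholinergic cells in the *Ngfr* values was not tested. The ratio of *Ntrk2* to *Ngfr* ran from 6.27 in *Snord116del* at Zt +16 to 181 in *Snord116del* at Zt +6.

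**Figure D2:**
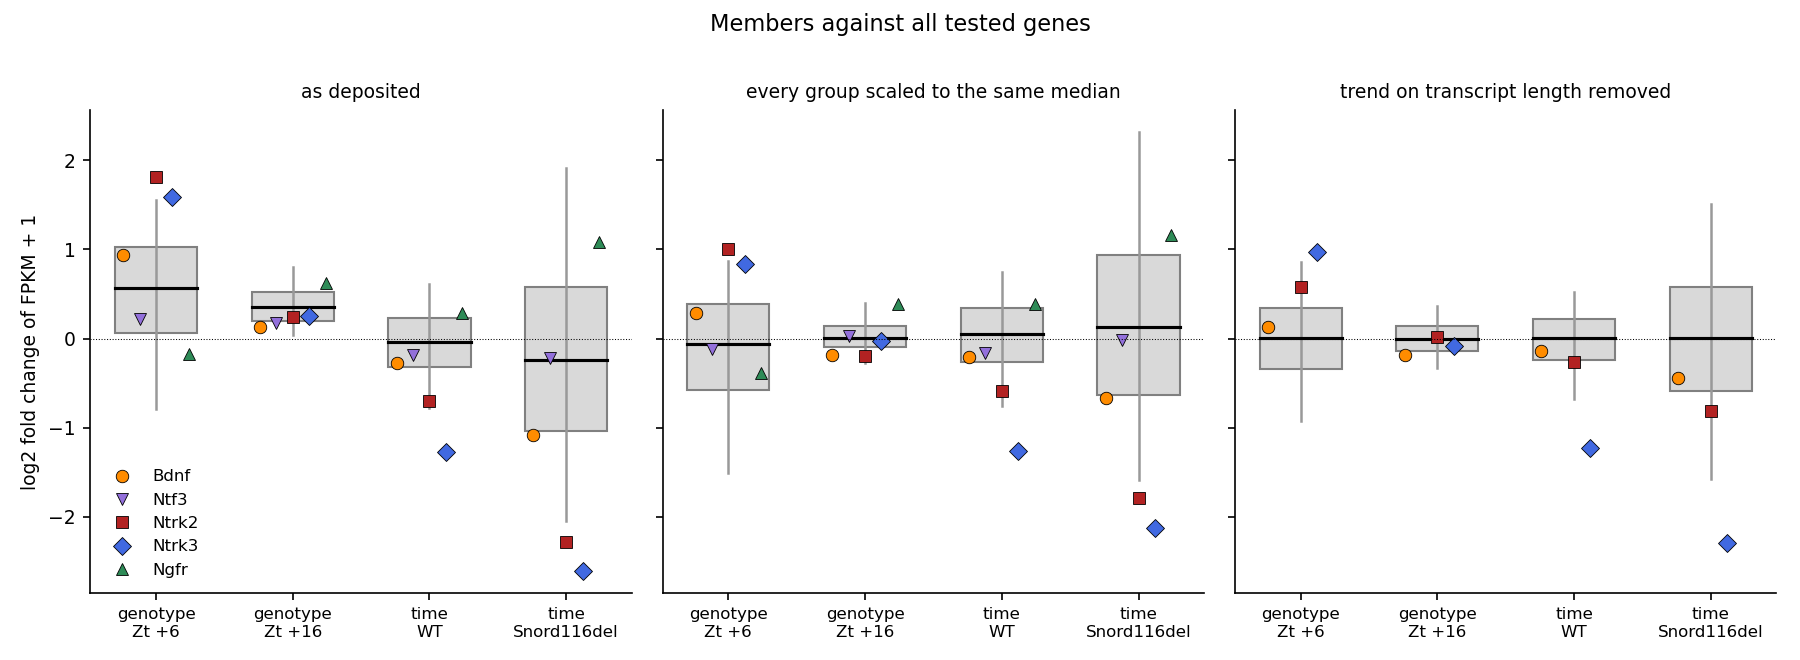
Log2 fold changes of FPKM + 1 of the members (symbols) over the tested genes (line at the median, box from the 25th to the 75th percentile, whisker from the 5th to the 95th) in the 4 comparisons, as deposited, with equal medians and without the length trend. *Ntf3* and *Ngfr* did not pass the filter on low values and are absent from the right panel. *Ntrk3* lies below the whisker between times in WT in all 3 panels (-1.27, -1.26 and -1.23).

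The genes whose pattern over the 4 groups lay nearest were found by the Euclidean distance of log2(FPKM + 1) centred over the groups. For *Bdnf* they were *Riok3*, *Entpd5* and *Dock10*, at distances from 0.0217 to 0.0238. For *Ntf3* they were *Ikbip*, *Myoz3* and 1700008J07Rik, and for *Ngfr* they were *Ube2ql1*, 4930579G22Rik and *Ykt6*. For *Ntrk2* they were *Gabbr2*, *Dmxl2* and *Cbx3*, and for *Ntrk3* they were *Tnk2*, *Dgkz* and *Clcn6*. The closest pair among the members was *Ntrk2* and *Ntrk3*, at 0.478, and the farthest was *Ntrk3* and *Ngfr*, at 2.92. With 4 groups such distances describe these values only.

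The genes around the members were taken from lists of 95 genes of neurotrophin processing, receptors, signalling and response, all of which were in the table and 81 of which were tested. At Zt +6, 57 of the 81 passed the rule as higher in *Snord116del* (70.4%, against 49.3% of all tested genes) and 1 as lower. Their median log2 fold change was 0.99, against 0.57 over the tested genes. The filter uses the mean over all 4 groups, so some genes passed it only through their level in *Snord116del* at Zt +6. This favours a call as higher. Without the filter 61 of 95 were higher and 1 lower, where 26.0% of all genes were higher. With a mean of at least 5 FPKM 27 of 46 were higher and 1 lower, where 37.2% of all genes so filtered were higher and 15.6% lower. The split moved with the scale and with the length trend. With equal medians 23 were higher and 15 lower, where 14.8% of all tested genes were higher and 24.2% lower. With quantile normalization 33 were higher and 9 lower, where 20.7% of all tested genes were higher and 21.0% lower, and the list's median was 0.47. With equal totals the split stayed at 57 and 1. Without the length trend 16 were higher and 7 lower with a median of 0.09, where 12.6% of all tested genes were higher and 13.45% lower. At Zt +16, 10 passed the rule as higher and none as lower (19.0% of all tested genes were higher), with a median of 0.28 against 0.35. With equal medians that split was 1 higher and 2 lower, and with equal totals it was 0 and 3.

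Counts of single lists are given on the deposited scale only. There 49.3% of all tested genes passed the rule as higher at Zt +6, and 7.62% as lower. Of tested genes with a transcript of 4 to 6 kb 74.9% passed as higher, and of those over 6 kb 91.2%. Among the other receptors and co-receptors, all 6 tested genes passed the rule as higher at Zt +6. *Rtn4r*, the Nogo receptor that can signal together with p75, had a log2 fold change of 1.53, and *Sort1*, sortilin, the co-receptor of p75 for proneurotrophins, of 1.22. The sortilin relatives *Sorcs1*, *Sorcs2* and *Sorcs3* were at 1.12, 0.99 and 0.79, and *Lingo1*, a partner of the Nogo receptor, was at 0.98. *Rtn4r* resembled *Ntrk3* in its levels, with 7.67 FPKM in WT and 24.1 FPKM in *Snord116del* at Zt +6 and with 2.64 and 3.38 FPKM at Zt +16. None of these 6 passed the rule at Zt +16, where 19.2% of all tested genes did.

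Of the processing and sorting genes 3 of 7 tested passed the rule as higher at Zt +6, against 49.3% of all tested genes. They included *Pcsk1*, a proprotein convertase of secretory granules, at 1.38, and *Htt*, huntingtin, which takes part in the transport of BDNF vesicles, at 1.17. *Hap1*, a partner of huntingtin, was at -0.25 and the convertase gene *Pcsk7* at 0.11. Of the p75 adaptors 2 of 5 were higher, with *Rhoa*, a small GTPase downstream of p75, at 1.51 and *Irak1* at 0.66. *Ngfrap1*, which encodes a small p75-associated protein, was the 1 gene of all these lists that passed as lower, at 40.5 FPKM in *Snord116del* and 115 FPKM in WT at Zt +6. At Zt +16 it was at 270 and 148 FPKM and passed as higher, with the order of groups of *Ngfr*. That order was not particular to genes of p75, since *Usf2*, a regulator of *Bdnf* transcription, had it too. Of tested genes with a longest transcript under 1 kb, 43.7% passed as lower at Zt +6 and 51.2% as higher at Zt +16. A link between *Ngfrap1* and *Ngfr* was not tested. *Arhgdia*, a regulator of small GTPases, was at -0.25 at Zt +6.

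Of the Trk adaptors 11 of 14 tested passed the rule as higher at Zt +6, against 49.3% of all tested genes. *Plcg1*, a phospholipase that binds active Trk receptors, was at 1.67 and *Kidins220*, a Trk scaffold, at 1.52, while *Sh2b1* was at 0.09 and *Grb2*, the adaptor to Ras, at 0.10. Of the Ras and MAP kinase genes 10 of 14 were higher, with *Braf* at 1.57 at the top and *Map2k2* at -0.12 and *Map2k5* at -0.34 at the bottom. Of the PI3 kinase and Akt genes 8 of 10 were higher, led by *Foxo3*, a transcription factor that Akt inhibits, at 1.77 and by the catalytic subunit gene *Pik3ca* at 1.53. *Akt1* was at 0.08 and the regulatory subunit gene *Pik3r2* at 0.39. All 5 genes of calcium signalling were higher, from *Camk2b* at 0.79 and *Prkca* at 1.32 to *Itpr1*, the IP3 receptor, at 1.65 and *Camk4* at 1.98.

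The regulators of *Bdnf* transcription and the genes that respond to BDNF gave different counts, where 49.3% of all tested genes were higher at Zt +6. Of 11 tested regulators 9 passed the rule as higher at Zt +6, led by *Mef2c* at 1.95 and *Mef2a* at 1.70, activity-dependent transcription factors, while *Srf* was at -0.01 and *Usf2* at -0.30. In WT 7 of the 11 were lower at Zt +16 than at Zt +6, against 10.3% of all tested genes and 29.5% of those over 6 kb. *Mef2a* went from 3.06 to 0.312 FPKM there. Of 9 responsive genes 3 were higher at Zt +6, with *Homer1*, a synaptic scaffold, at 2.15 and *Arc*, an immediate early gene of synapses, at 1.38. *Fos* was at -0.52 and *Junb* at -0.05, and both are immediate early genes too. In WT *Arc* was at 49.5 FPKM at Zt +6 and 14.4 FPKM at Zt +16. Between these times in WT 4 of the 9 responsive genes were lower at Zt +16 and 2 higher. Of all tested genes 10.3% were lower and 5.71% higher there. The difference between the lists was not tested.

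**Figure D3:**
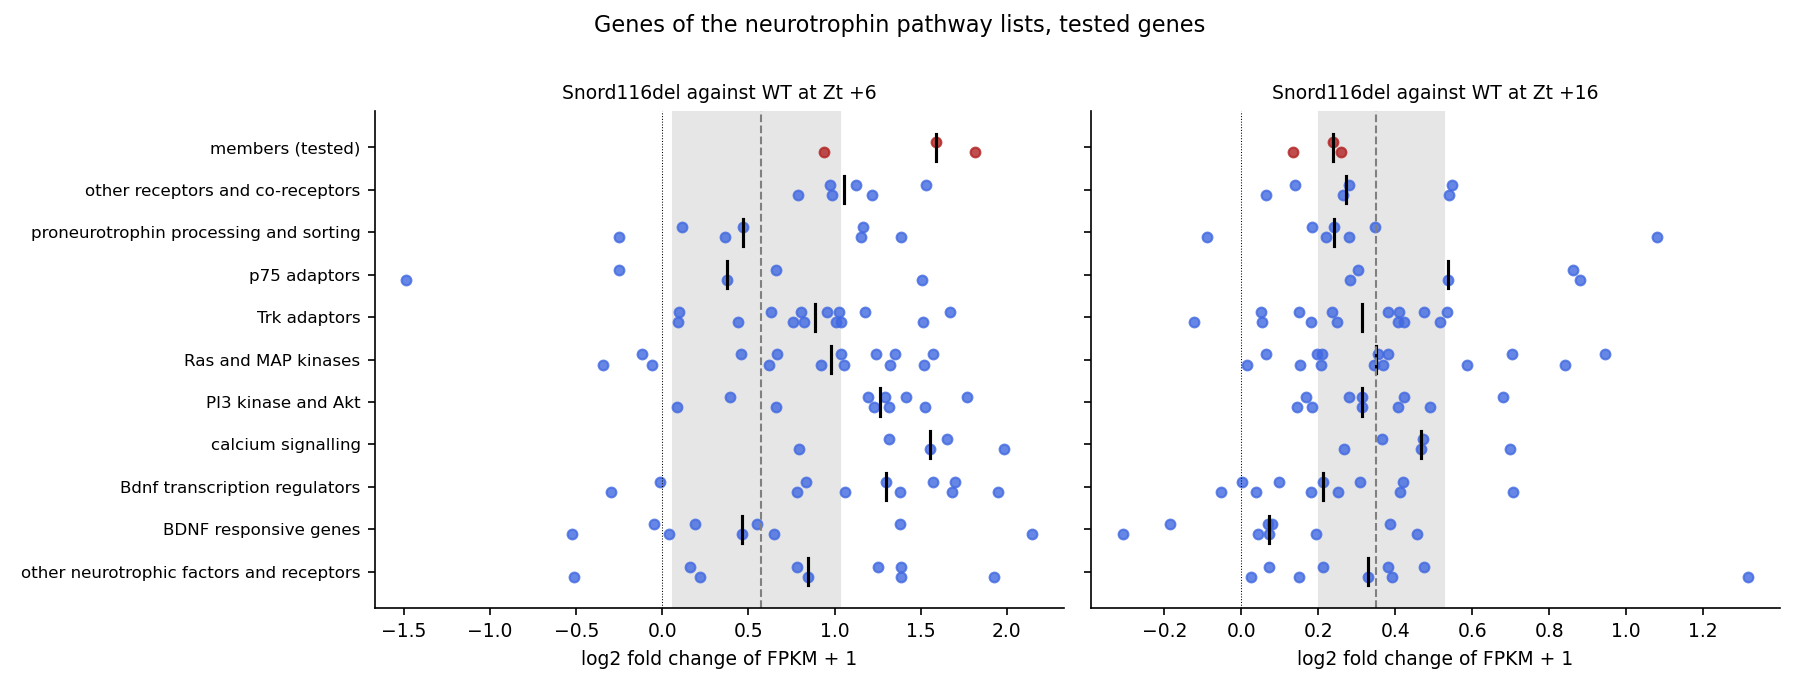
Log2 fold change of FPKM + 1 of *Snord116del* against WT at Zt +6 (left) and Zt +16 (right) for tested genes of each list, 1 point per gene, with a bar at the list's median and the members in red. The dashed line and grey band are the median and the middle quartiles of all tested genes (median 0.57 left and 0.35 right). The left panel spans from *Ngfrap1* at -1.49 to *Homer1* at 2.15.

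The ChIRP-seq lists were joined to the members when a peak lay in the gene or within 2 kb of it. In WT *116HG* replicate 1, 4 of the 5 members had a peak, as had 59.4% of the 21853 genes of the table that matched the annotation. *Bdnf* had 5 peaks, *Ntf3* had 1, *Ntrk2* had 37, *Ntrk3* had 24 and *Ngfr* had 0. The median over genes of like length was 2 for *Bdnf*, 3 for *Ntf3*, 7 for *Ntrk2*, 7 for *Ntrk3* and 1 for *Ngfr*. In WT *116HG* replicate 2, *Ntf3* and *Ntrk2* had 1 peak each (13.9% of genes had one), and the other members had 0. Of genes of like length 23.2% had such a peak for *Ntf3* and 54.8% for *Ntrk2*. In the control lists *Ntrk2* and *Ntrk3* each had 1 peak of *Snord116del* NSC (7.88% of genes had one). Among genes of like length the share was 23.3% for *Ntrk2* and 27.1% for *Ntrk3*. No member had a peak of WT NSC (2.3% of genes) or of *Snord116del* *116HG* (2.26% of genes). The *116HG* libraries thus differed widely from each other at these genes, and the fold over input of replicate 2 peaks was not given.

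A replicate 1 peak was counted as replicated when a peak of replicate 2 lay within 10 kb. *Ntf3* was the 1 member with such a peak, which 10.9% of the matched genes had. The share was 16.2% among genes of a length like that of *Ntf3*. It was 28.1% and 30.7% among those like *Ntrk2* and *Ntrk3*. The peaks of *Ntf3* lay 28.1 kb into the gene, in an intron, and overlapped by 65 bases, with a fold over input of 82.1 in replicate 1. At *Ntrk2* the replicate 2 peak, at chr13:59207054-59207193 in an intron, lay 20604 bases from the nearest replicate 1 peak. The *Snord116del* NSC peak of *Ntrk2* lay nearer to it, at chr13:59208864-59209231.

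The run of A in the shared sequence of *Ntf3* was set against all peaks. A run of at least 20 A or at least 20 T in a row was found in 85.7% of the 1869 replicate 1 peaks that overlapped a replicate 2 peak directly. It was found in 9.70% of all replicate 1 peaks, in 32.6% of all replicate 2 peaks and in 8.17% of the replicate 1 peaks that were replicated within 10 kb without overlap. In the control lists the share was 4.50% of WT NSC peaks, 0.471% of *Snord116del* NSC peaks and 0.236% of *Snord116del* *116HG* peaks. Of all windows of 157 bases tiled over mm9, the median width of a replicate 1 peak, 0.372% held such a run. At the Trk receptors 1 of 37 replicate 1 peaks of *Ntrk2* and 1 of 24 of *Ntrk3* held one, and at *Bdnf* 0 of 5.

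How unique a peak's sequence is was measured by counting its middle 32 bases in mm9 on both strands. The middle of the *Ntf3* replicate 1 peak occurred 6985 times, whereas that of the overlapping replicate 2 peak occurred at 1 place. The middle of the *Ntrk2* replicate 2 peak occurred 2055 times. The *Snord116del* NSC peaks had 1006 places at *Ntrk2* and 40 at *Ntrk3*. By contrast 35 of 37 replicate 1 peaks of *Ntrk2*, 23 of 24 of *Ntrk3* and 5 of 5 of *Bdnf* had a middle found at 1 place.

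At *Ntrk2*, replicate 1 peaks followed the exons. Of its 37 peaks 29 held exon bases, and 19 of its 21 exons, after overlapping exons were merged, had a peak. Peaks covered 81.4% of its 15094 exon bases and 0.493% of its intron bases. The gene has separate last exons for its receptor forms, and both were covered. The last exon of transcript Ntrk2-203, whose 1428 coding bases encode the truncated receptor, has 5008 bases, of which 93.1% lay under 5 peaks. The last exon of the kinase form Ntrk2-202, with 2463 coding bases, has 5803 bases, of which 80.9% lay under 7 peaks. The last exon of another short form, Ntrk2-201, of 1288 bases, had 0 peaks.

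At *Ntrk3*, 10 of 24 replicate 1 peaks held exon bases and 9 of its 20 merged exons had a peak. Peaks covered 31.0% of exon bases and 0.520% of intron bases. A further cluster lay after the annotated end: 10 peaks lay within 10 kb after it, out to 9.31 kb, 3 of them within 2 kb, with folds over input from 26.5 to 82.1. No other annotated gene lies in those 10 kb. In addition 4 peaks lay within 2 kb after the end of Ntrk3-002, the shorter coding transcript. All 5 peaks of *Bdnf* lay in its last exon, which holds the whole coding part in most of its transcripts, and covered 38.3% of that exon's 3625 bases.

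Of the start windows that could be placed 1 overlapped a peak, and the share over the start windows of all genes was not computed. Windows from 250 bases before to 50 bases after a RefSeq start (GRCm38.p6, placed in mm9 by an exact match of their sequence) were found for 4 members, 7 for *Bdnf*, 2 for *Ntf3* and 1 each for *Ntrk2* and *Ngfr*. The *Ntrk2* window, chr13:58907680-58907979, overlapped 1 replicate 1 peak, which ran on into the first exon. None of the other 10 windows overlapped a peak of any list. *Ntrk3* had no such window. A replicate 1 peak lay in its first exon, at chr7:85723074-85723285, with its middle 0.115 kb after the annotated start.

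**Figure D4:**
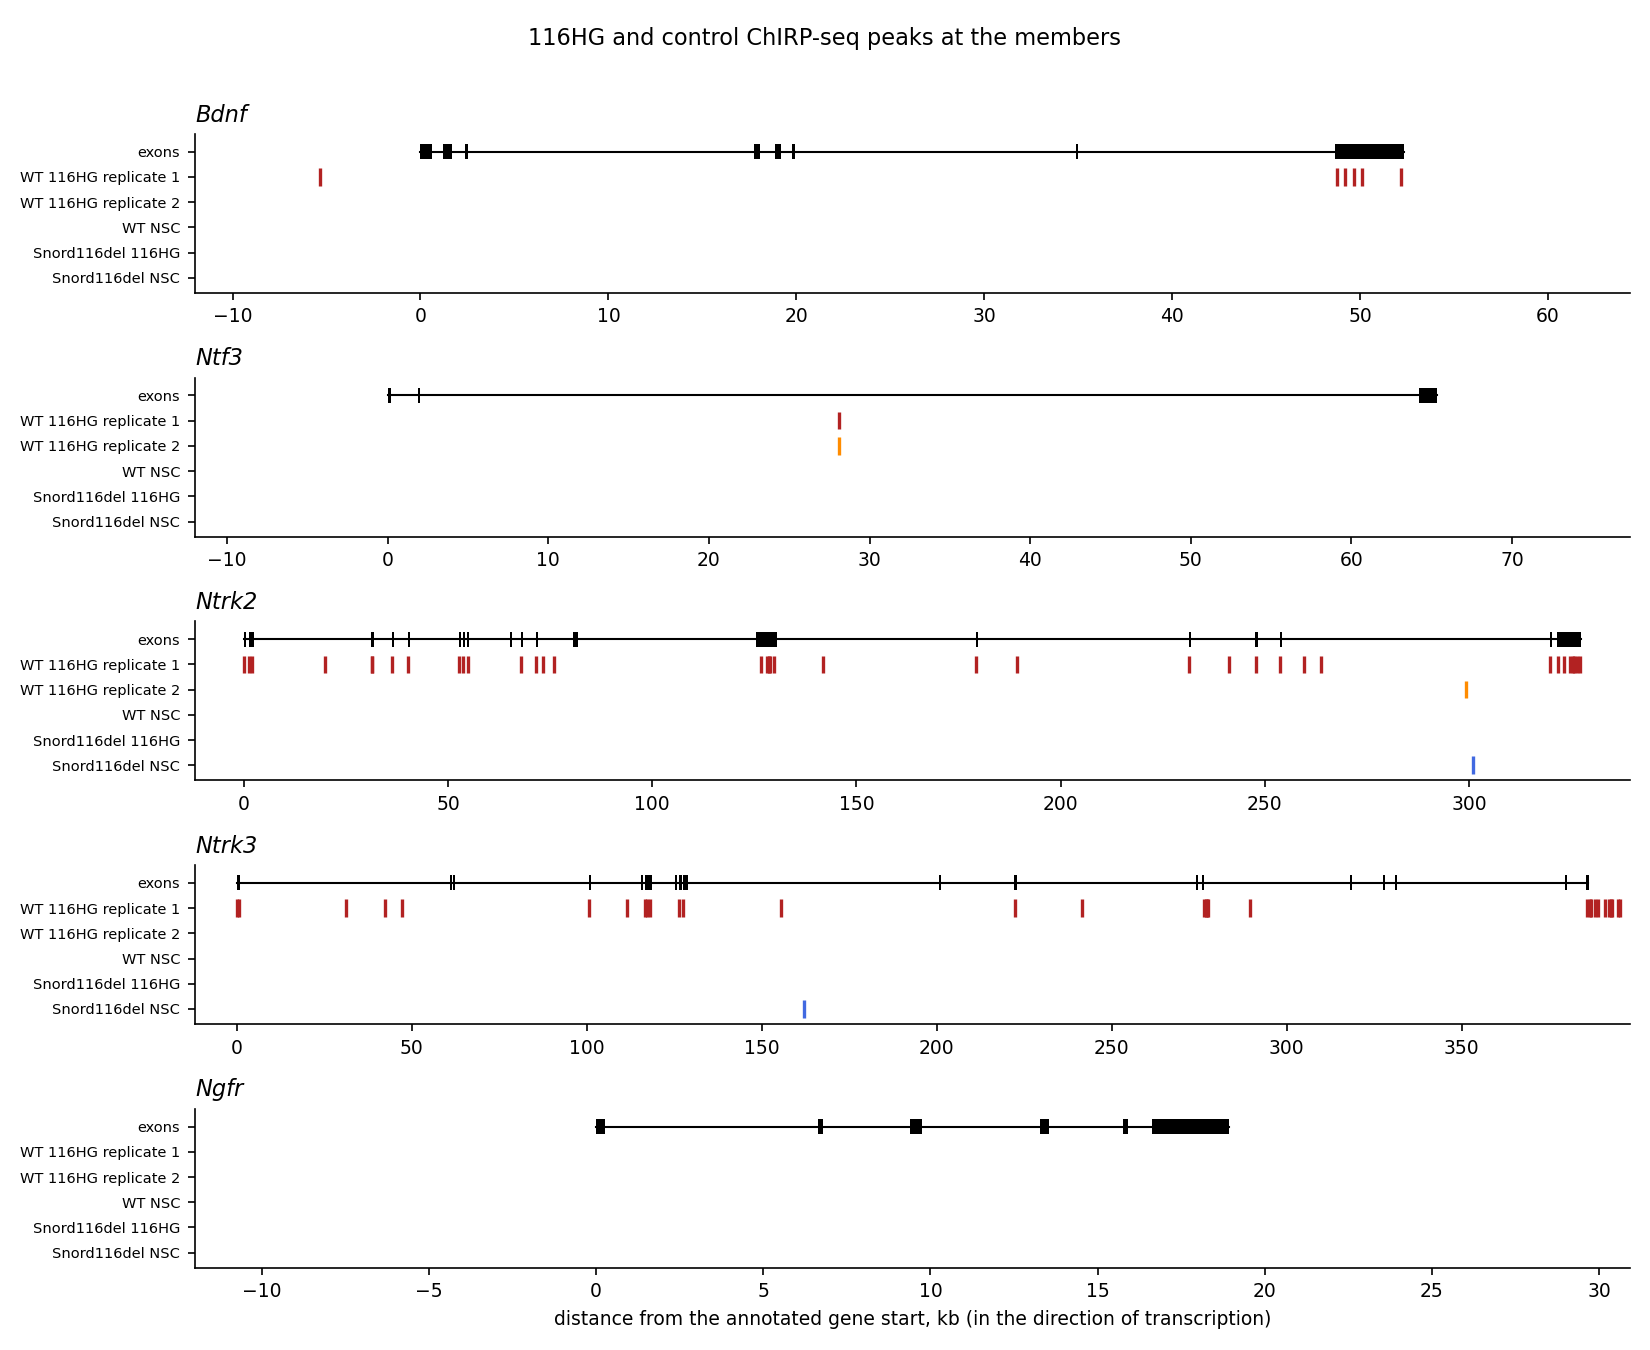
Positions of the peaks of the 5 lists (coloured ticks, 1 row per list) under the merged exons (black boxes) of each member, in kb from the annotated start in the direction of transcription, with 12 kb on each side. Of the 37 replicate 1 peaks of *Ntrk2*, 29 meet its exons, those of *Ntrk3* continue after its end, and the peaks of both WT *116HG* libraries coincide at *Ntf3* alone.

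The number of replicate 1 peaks at a gene went with its transcript level. Across the 21853 matched genes, which share 1 peak list and 1 RNA-seq group, the Spearman rank correlation between the number of replicate 1 peaks and FPKM in WT at Zt +6 was 0.73, and it was 0.42 with gene length. For replicate 2 the value with FPKM was 0.09 and for *Snord116del* NSC 0.11. These describe genes of single libraries, which are not independent replicates. The members stood in the same order by both measures: *Ntrk2*, *Ntrk3*, *Bdnf*, *Ntf3* and *Ngfr* had 37, 24, 5, 1 and 0 peaks at 16.1, 4.64, 2.39, 0.571 and 0.497 FPKM. Exons held the middle of 72.0% of all replicate 1 peaks on annotated chromosomes and of 2.37% of replicate 2 peaks. The part of spliced RNA or its cDNA in the peaks was not tested.

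**Figure D5:**
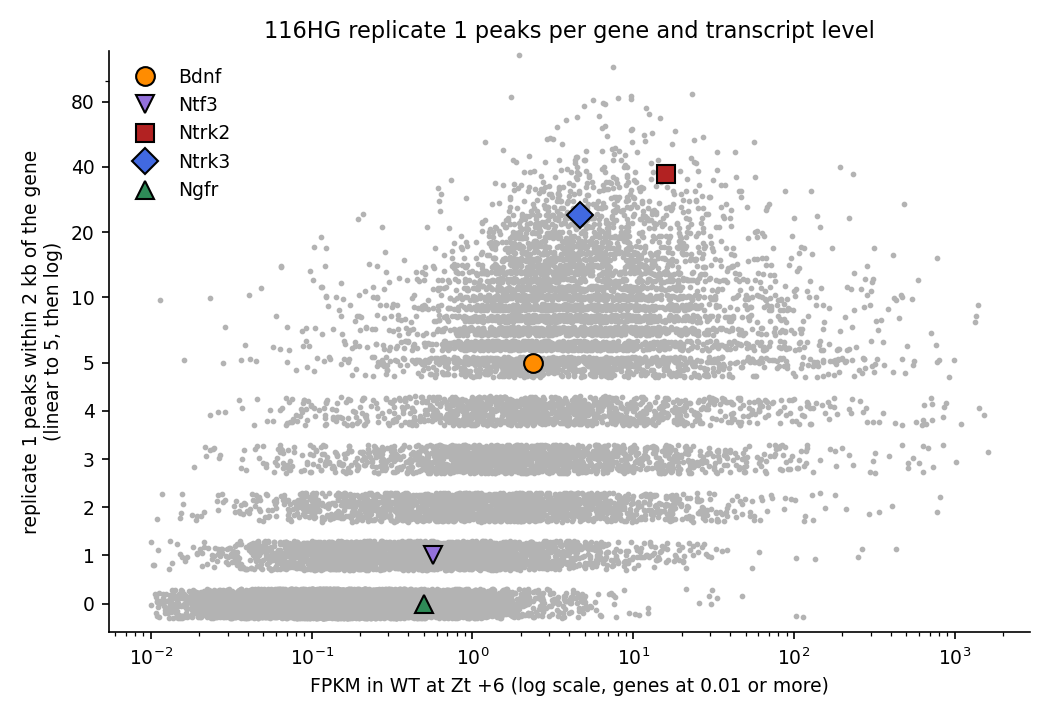
Replicate 1 peaks within 2 kb of each gene (vertical axis, linear to 5 and then logarithmic, points spread slightly) against its FPKM in WT at Zt +6 (log axis), grey for genes at 0.01 FPKM or more and symbols for the members. *Ntrk2* and *Ntrk3*, with 37 and 24 peaks, lie in the upper part of the cloud and *Ngfr* at 0.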

How the data were processed

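RNA-seq reads of dissected cortex were aligned by the authors with TopHat2 (2.0.5) to mm9, and Cuffdiff (2.0.2) gave the deposited FPKM, 1 value per gene and group. The same table holds the authors' own log2 fold changes, p-values and q-values, which were not used. For ChIRP-seq the authors aligned reads with Bowtie2 (2.0.0), called peaks with MACS (1.4.2) in each library against input, and filtered them on false discovery rate and fold. Fold over input, a ratio deposited for 4 of the 5 peak lists, was used as given. Read counts are not part of these files, and the input library itself was not used here. Labels of 3 of the Zt +6 mice name another version of the table than the one analysed.

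The 5 members were taken by symbol. Members and gene lists were chosen with earlier results of these data known. Groups were compared on log2(FPKM + 1) by the fold rule (at least 1.5-fold, at least 1 FPKM in the higher group, mean of at least 1 FPKM), without a test. Fold changes on this scale understate the change of low genes. The length trend was a lowess curve (span 0.3) of the log2 fold change on the log of the longest annotated transcript, known for 98.7% of tested genes. Genes were placed with GENCODE annotation of NCBIM37. Pathway genes named are the 2 with the highest and the 2 with the lowest log2 fold change at Zt +6 in each list, all other receptors and co-receptors tested, and the nearest 3 patterns per member. *Rtn4r*, *Mef2a* and *Arc* levels were given after their values were seen. Some genes that these rules name are not reported here. Steps were tested on simulated data. Python 3.11.15, pandas 2.3.3, numpy 2.4.6, statsmodels 0.14.6 and matplotlib 3.10.9 were used.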

Additional observations from a re-analysis of the deposited data

Results flagged for a closer look

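The genotype effect on *Ngfr* had opposite signs at the 2 times of day. Its log2 fold change of FPKM + 1 was -0.17 at Zt +6 and 0.62 at Zt +16, a difference of 0.80, with levels under 1 FPKM in 3 of the 4 groups. With 1 value per group the difference was not tested. No other member changed sign between the times on the deposited scale. With equal medians all 5 members did, as they also did with equal totals and with quantile normalization. With equal medians *Ngfr* was at -0.39 at Zt +6 and 0.39 at Zt +16, and *Ntrk2* at 1.01 and -0.19. *Bdnf* was at 0.29 and -0.18, *Ntf3* at -0.12 and 0.03 and *Ntrk3* at 0.84 and -0.03.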

How the results depend on the processing

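No paired analysis was possible because the table holds no value per mouse. The number of genes past the fold rule for *Snord116del* against WT at Zt +6 (5858) was 2390 with a mean of at least 5 FPKM, 3059 with a fold of 2 and 2649 without the length trend. At Zt +16 (1980) it was 3141 with a pseudocount of 0.1, 177 with equal medians, 130 with equal totals, 95 with quantile normalization, 143 with a fold of 2 and 174 without the length trend. Between times in WT (1645) it was 2694 with a pseudocount of 0.1, 1001 with a mean of at least 5 FPKM, 2937 with equal totals, 287 with a fold of 2 and 1028 without the length trend, and in *Snord116del* (6593) it was 3088 with a mean of at least 5 FPKM and 4368 with a fold of 2. Higher genes were 86.6% of those past the rule at Zt +6 and 98.9% at Zt +16, but 37.9% and 70.1% with equal medians, 49.7% and 42.1% with quantile normalization and 48.4% and 54.6% without the length trend. With equal totals they were 86.1% and 24.6%, and with a mean of at least 5 FPKM 70.5% at Zt +6. Between times they were 35.7% in WT and 39.0% in *Snord116del*, but 53.5% and 57.0% with equal medians, 1.74% and 11.1% with equal totals, and 52.9% and 63.1% for means of 5 FPKM or more. Shares in *Snord116del* were 51.5% with quantile normalization and 50.01% without the length trend. The median difference of the genotype effect between times (-0.22) was 0.18 with a mean of at least 5 FPKM and 0.056 with equal medians.

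No member that passed the fold rule in a comparison had the opposite sign in that comparison under another setting. *Bdnf* lost its call at Zt +6 with equal medians (0.29), quantile normalization (0.29) and without the length trend (0.13), and *Ntrk2* without the length trend (0.58). Between times in *Snord116del*, *Bdnf* lost its call with quantile normalization (-0.56) and without the length trend (-0.44). Between times in WT, *Ntrk2* lost its call without the length trend (-0.26) and *Bdnf* gained one as lower with equal totals (-0.60). A mean of at least 5 FPKM leaves *Bdnf* out of the tested genes, and without a filter *Ngfr* passed the rule as higher for *Snord116del* against WT at Zt +16 (0.62) and between times in *Snord116del* (1.09). The alternative that lengthens *Ntrk3* was added after the data were seen, and with it *Ntrk3* lost its call at Zt +6 (0.19). Members with a replicated peak numbered 1 (*Ntf3*), 2 within 50 kb and 0 with the upper quartile of fold, and from 2 to 4 with 1 library left out. Without replicate 1 they were *Ntf3* and *Ntrk2*, and without replicate 2 every member but *Ngfr*. Genes with a replicated peak (2382) numbered 728 by direct overlap, 1184 within 2 kb, 5935 within 50 kb and 1179 with the upper quartile of fold, and from 3028 to 12970 with 1 library left out. The cause of these shifts was not tested. The files hold FPKM and no read counts, and no limit of detection was computed for the low levels of *Ntf3* and *Ngfr*.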

Other observations

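Other neurotrophic factors and receptors, a list of 17 genes of which 9 were tested, gave 6 higher and 0 lower for *Snord116del* against WT at Zt +6. Of all tested genes 49.3% were higher and 7.62% lower there, and the list was counted on the deposited scale only. *Ptn*, pleiotrophin, a secreted growth factor of the developing brain, had a log2 fold change of 1.93 and *Lifr*, the receptor of leukaemia inhibitory factor, of 1.39. *Nrtn*, neurturin, a relative of GDNF, was at -0.52 and *Mdk*, midkine, at 0.16. At Zt +16 *Nrtn* was the 1 gene of this list past the fold rule, at 13.1 FPKM in *Snord116del* and 4.67 FPKM in WT. Of all tested genes 19.2% passed it then. *Ptn* was at 3.85 FPKM in WT and 17.5 FPKM in *Snord116del* at Zt +6, and at 0.961 and 1.57 FPKM at Zt +16, the order of groups of the Trk receptors. *Nrtn* was instead lowest in *Snord116del* at Zt +6, at 1.79 FPKM, as *Ngfr* was.

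*Ttr*, transthyretin, a marker of choroid plexus, was at 200 FPKM in WT and 182 FPKM in *Snord116del* at Zt +6, and at 24.9 and 29.6 FPKM at Zt +16. Its level therefore separated the times of day in both genotypes, in the direction of *Ntrk2* and *Ntrk3*. The part of carried-over choroid plexus in the dissection of each group was not tested.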
